A study of Rattus norvegicus with 25 samples.

Results

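The cell cycle genes of the intestinal crypt described here are 8 rat genes chosen by their Ensembl IDs, for their known roles: Mki67 (ENSRNOG00000028137), Top2a (ENSRNOG00000053047), Cdk1 (ENSRNOG00000000632), Ccnb1 (ENSRNOG00000058539), Ccna2 (ENSRNOG00000015423), Pcna (ENSRNOG00000028887), Ccnd1 (ENSRNOG00000020918) and Myc (ENSRNOG00000004500). Earlier results of these data were known when they were chosen. Shares of members set beside shares of all IDs are therefore descriptive. Of these 8 IDs, 7 had a row among the 32883 gene IDs of the count table, and all 7 passed the filter on low counts in both cohorts. Pcna was not analysed here.

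The samples are pieces of rat intestine taken after Roux-en-Y gastric bypass (RYGB), in which a small stomach pouch is joined to the small bowel, or after sham surgery. A first cohort held 4 groups of 3 samples. RYGB_AL is the alimentary limb, which receives food from the pouch, and RYGB_CL is the common limb further down. Sham_JEJU and Sham_IL are the jejunum and ileum of rats after sham surgery. The strain of the first cohort is not given in the sources used here. An OLE cohort came from OLETF rats, a strain that grows obese and diabetic. It held 4 numbered samples of sections that the submitters called glucotonic after RYGB (Glucotonic_OLE), 4 of sections called non-glucotonic after RYGB (Nonglucotonic_OLE), and 3 of sham distal intestine (Sham_OLE). Every rat in both cohorts had been operated on, so no group shows the unoperated gut.

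The small intestinal lining is renewed from the crypts, where stem cells and their transit-amplifying progeny divide before they move onto the villus. Growth signals that reach a crypt cell raise Myc, a transcription factor for growth genes, and Ccnd1, which encodes cyclin D1, the partner of Cdk4 and Cdk6 at the entry into the cycle. Later in the cycle Ccna2 (cyclin A2) and Ccnb1 (cyclin B1) bind Cdk1, the kinase that drives mitosis, while Top2a untangles the replicated DNA and Mki67 coats the mitotic chromosomes. Transcription of the late genes is commonly held down outside the cycle, and released late in it, through a CCAAT box bound by NF-Y and a cell cycle homology region (CHR) bound by the DREAM and MuvB complexes. In the bulk sections measured here, fewer dividing cells and less RNA per dividing cell cannot be told apart. Dividing cells outside the crypt, such as immune or connective tissue cells, may be in a bulk section too. Their share was not measured.

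The windows upstream of 4 of the late genes are shown because genes of this kind are known to be regulated through shared motifs there. These are the late genes for which a promoter entry was found. The sequences come from RefSeq (GRCr8) and run 5′ to 3′ on the gene's strand, from 170 bases before the annotated start to the base before it. Promoter entries were matched by symbol for Mki67, Top2a, Cdk1, Ccnb1 and Pcna, which is 5 of the 8 genes. Ccna2, the other late gene, had no match. Capitals mark CCAAT or its reverse complement ATTGG, and the CHR forms TTTGAA, its reverse complement TTCAAA, and TTTAAA.
Mki67, chr1:199952594-199952763, minus strand: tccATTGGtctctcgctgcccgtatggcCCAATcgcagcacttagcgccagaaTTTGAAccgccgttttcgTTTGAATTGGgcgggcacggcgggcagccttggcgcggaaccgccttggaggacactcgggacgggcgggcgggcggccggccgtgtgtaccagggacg
Top2a, chr10:84473094-84473263, minus strand: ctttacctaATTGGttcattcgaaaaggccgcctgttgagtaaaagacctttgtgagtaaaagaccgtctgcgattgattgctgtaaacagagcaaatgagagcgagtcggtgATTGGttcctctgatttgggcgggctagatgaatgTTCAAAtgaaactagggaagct
Cdk1, chr20:19265123-19265292, plus strand: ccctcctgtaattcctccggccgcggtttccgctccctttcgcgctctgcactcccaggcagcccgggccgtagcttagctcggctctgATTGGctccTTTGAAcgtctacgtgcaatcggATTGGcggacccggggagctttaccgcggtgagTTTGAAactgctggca
Ccnb1, chr2:33655226-33655395, minus strand: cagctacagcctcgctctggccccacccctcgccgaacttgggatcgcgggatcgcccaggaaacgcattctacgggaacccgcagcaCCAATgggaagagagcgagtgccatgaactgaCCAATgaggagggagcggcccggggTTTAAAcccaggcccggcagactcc

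Motifs were searched on both strands in the full RefSeq window of 250 bases before to 50 after the start. CCAAT was found 4 times for Mki67, 4 times for Top2a, 3 times for Cdk1 and 2 times for Ccnb1. A CHR form lay in all 4 windows, with 2 matches for Mki67, 1 for Top2a, 2 for Cdk1 and 1 for Ccnb1. The second TTTGAA of Mki67 shares 1 base with a neighbouring ATTGG. Of all 33469 rat promoters in the table, 37.5% held CCAAT, 28.3% held a CHR form, 11.2% held 2 or more CCAAT, and 3.07% held 2 or more CCAAT together with a CHR form. The E2F forms TTTCCCGC, TTTGGCGC, TTTCGCGC and TTTGCCGC, present in 2.14% of promoters, gave 1 match, the TTTCGCGC of Cdk1, which is in lower case above. The E-box CACGTG, to which Myc binds and which 6.42% of promoters held, was in none of the 5 windows. In Pcna, CCAAT was found 1 time and no CHR form was found. These are matches of letters in a window and not measured binding.

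**Figure D1:**
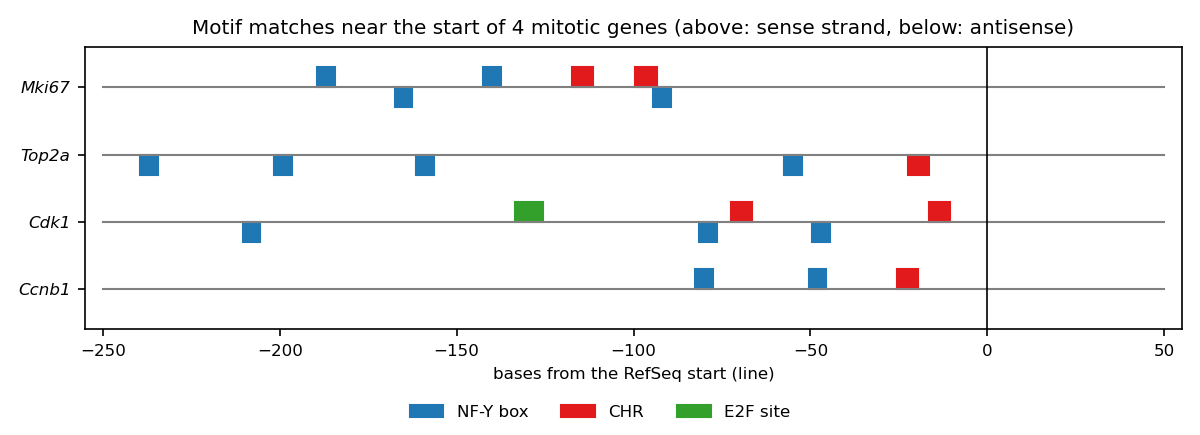
Motif matches in the RefSeq windows of Mki67, Top2a, Cdk1 and Ccnb1. The x axis is the distance in bases from the annotated start, boxes above a line are matches on the gene's strand and boxes below it on the other strand. All 4 windows hold at least 2 CCAAT (NF-Y box) and at least 1 CHR.

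Levels are given as CPM, the counts of a gene relative to its library's total after TMM scaling within a cohort, and differences as log2 differences from an edgeR quasi-likelihood fit of all groups of a cohort, with Benjamini-Hochberg adjusted p over all IDs tested. A gene is said to be called at an adjusted p under 0.05. First-cohort libraries held 23.7 to 49.3 M counts (M, the SI prefix mega) and OLE libraries 18.1 to 25.6 M; in the latter the 2 most abundant IDs took 44.6% to 65.9% of the counts. Leaving those 2 IDs out of the totals multiplies the OLE CPM by 2.11 to 2.13 in all 3 groups alike. Each member had 447 to 9350 counts per sample in the first cohort and 196 to 6046 in the OLE cohort, so that counting error alone was at most 4.73% and 7.14% of a value. CPM of different genes are not set against each other, since gene length enters them, nor are CPM of the 2 cohorts. All 3 Sham_OLE libraries came from sequencing lane 7, while 1 library of each OLE RYGB group did, 1 of the 2 libraries of number 13. Beyond the sample numbers the labels say nothing of separate animals, so a p-value here speaks of the scatter among these samples, which may be technical in part.

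**Figure D2:**
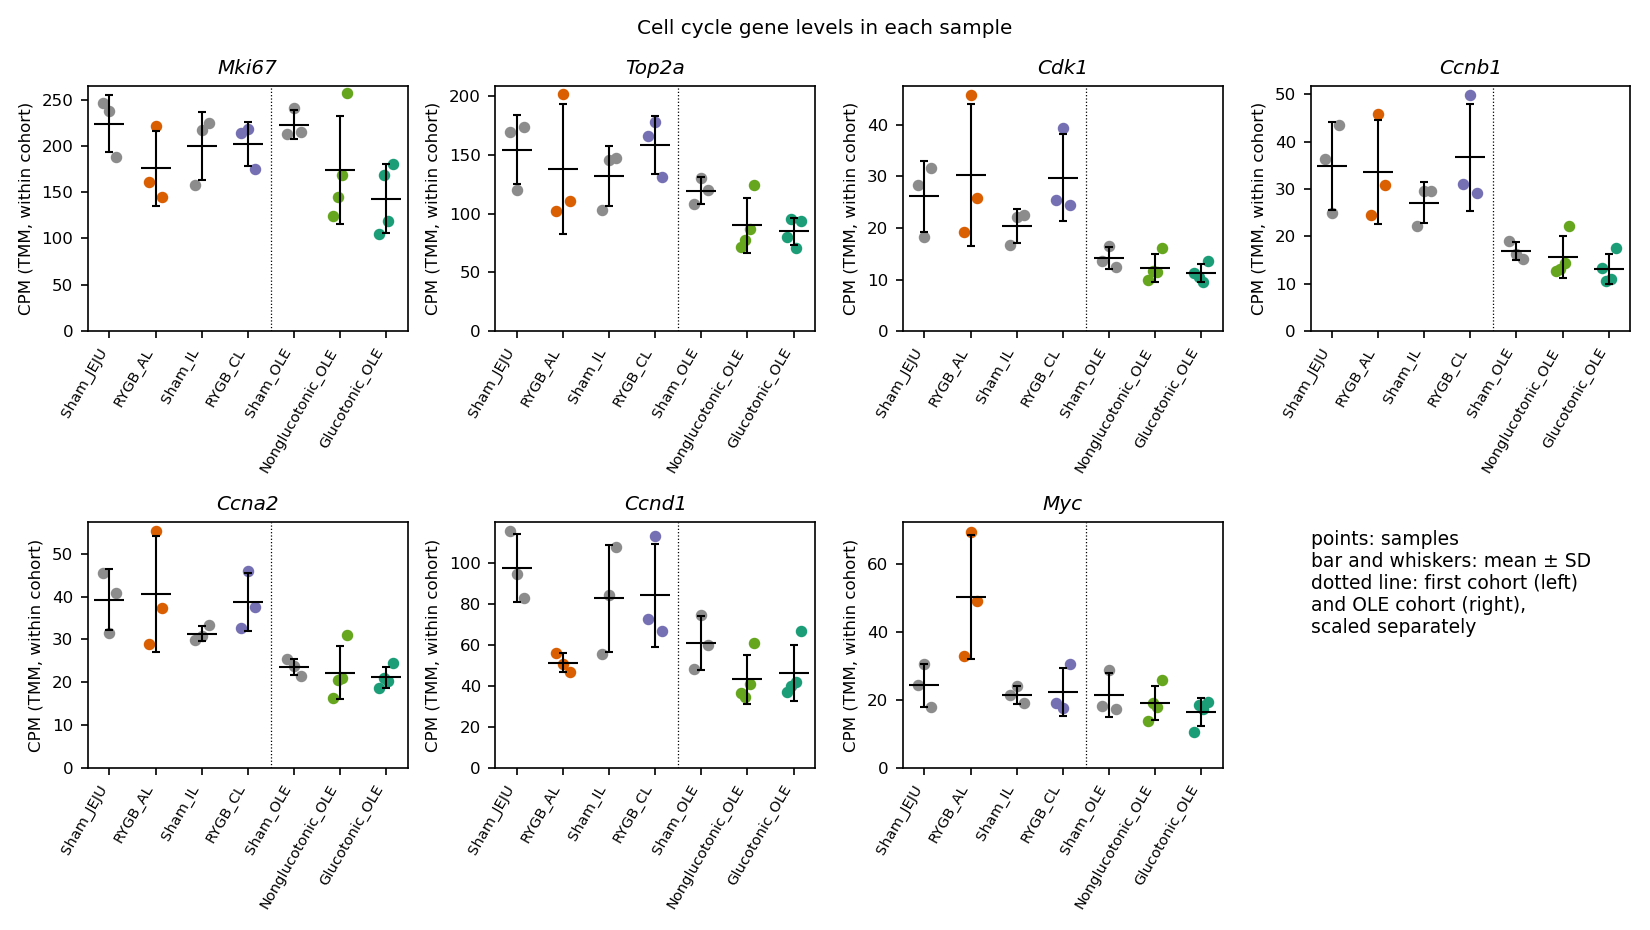
Levels of the 7 measured genes in every sample. The y axes are CPM (TMM-scaled within a cohort, each panel with its own scale from 0), points are samples, and bars with whiskers are the mean ± SD of 3 or 4 samples. In the 3 RYGB_AL samples Ccnd1 is lower and Myc is higher than in Sham_JEJU. For Ccnd1, Sham_IL 8-15 (55.6 CPM) lies inside the RYGB_AL range.

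RYGB_AL was set against Sham_JEJU to see what bypass changed in the bowel that now receives food straight from the pouch. Both entry genes were called, in opposite directions: Ccnd1 was lower and Myc was higher in RYGB_AL. None of the 5 mitotic genes was called. That is 2 of 7 members, 1 in each direction, against 7.66% of all 16146 IDs tested.

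Ccnd1 stood at 56.1, 50.5 and 46.9 CPM in RYGB_AL samples 1-1, 2-3 and 15-29. In Sham_JEJU samples 8-15, 14-28 and 15-30 it stood at 115.5, 94.3 and 82.8 CPM. The highest alimentary limb sample lay below the lowest sham jejunum sample. The log2 difference was -0.93 (SE 0.26, 95% interval -1.49 to -0.38, adjusted p = 0.0457 with edgeR), a mean of 51.1 ± 4.64 against 97.5 ± 16.6 CPM (SD, n = 3 each). The alimentary limb samples differed little among themselves for cyclin D1, with an SD of 9.08% of their mean.

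Myc stood at 32.9, 69.3 and 49 CPM in the same 3 RYGB_AL samples and at 24.4, 30.5 and 17.9 CPM in the 3 Sham_JEJU samples. The groups did not overlap, but the lowest alimentary limb sample, 1-1, came close to the highest sham sample, 14-28. The log2 difference was 1.06 (SE 0.29, 95% interval 0.41 to 1.70, adjusted p = 0.0493 with edgeR), a mean of 50.4 ± 18.3 against 24.3 ± 6.34 CPM (SD, n = 3 each). Groups without overlap were found for 2 of 7 members, these same 2 genes, and for 26.6% of all IDs.

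Both calls were near the threshold in edgeR. DESeq2 called both, with adjusted p of 0.0112 for Ccnd1 and 0.0106 for Myc. It also called more IDs from the same samples, 2029 against 1237 with edgeR. In edgeR, Ccnd1 was no longer called when any 1 of the 6 samples was left out, with log2 differences of -1.05 to -0.79 and edgeR adjusted p of 0.0504 to 0.167. Myc was no longer called in 5 of the 6 such fits, with log2 differences of 0.73 to 1.29 and edgeR adjusted p of 0.0222 to 0.209, and was kept only without RYGB_AL 1-1. It was not called either when only the 2 groups were fitted (edgeR adjusted p = 0.085).

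The ratio of Myc counts to Ccnd1 counts within a sample does not depend on the scaling between libraries. It was 0.586, 1.37 and 1.05 in the 3 RYGB_AL samples and 0.211, 0.324 and 0.216 in the 3 Sham_JEJU samples. Each of the 3 alimentary limb samples lay above all of the other 20 samples of the study, in which the ratio ran from 0.157 to 0.549. The ratio of Myc to Mki67 counts gave the same separation, 0.204 to 0.339 in RYGB_AL and 0.0804 to 0.175 in the other 20 samples. The ratio of Ccnd1 to Mki67 counts was 0.228 to 0.347 in RYGB_AL and 0.226 to 0.518 in the other 20 samples, which overlap. In RYGB_AL it lay below all samples of Sham_JEJU (0.396 to 0.470) and of Sham_IL (0.353 to 0.481). The overlap was with RYGB_CL (0.339 to 0.518) and with the OLE groups. These ratios were formed with the differences of the single genes known, and they carry no test.

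**Figure D3:**
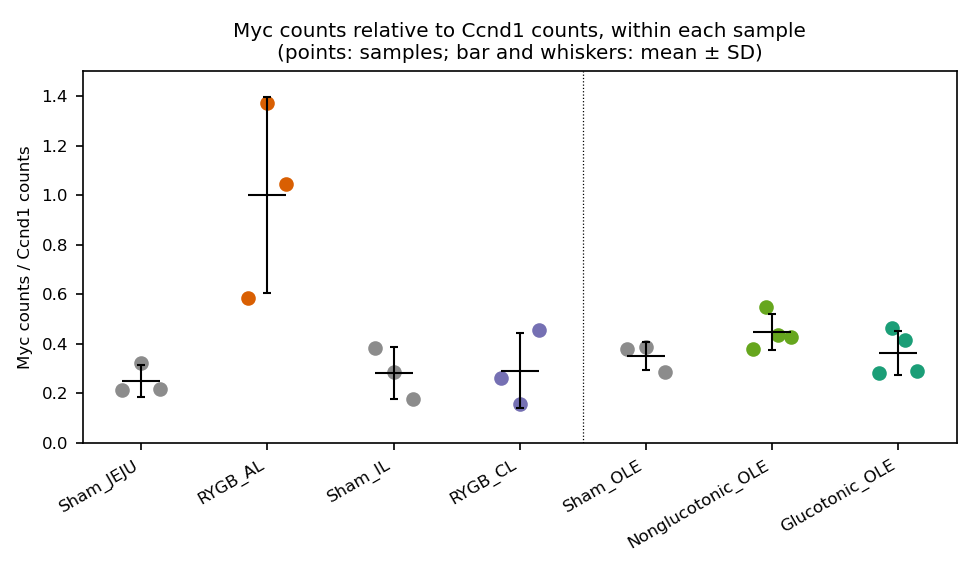
Myc counts divided by Ccnd1 counts in each sample. The y axis is the ratio without unit, points are samples, and bars with whiskers are the mean ± SD of 3 or 4 samples; the 3 RYGB_AL samples, from 0.586 to 1.37, lie above the other 20, which reach 0.549.

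The mitotic genes moved little on average in the alimentary limb, and the 3 samples disagreed. Cdk1 stood at 19.3, 45.7 and 25.9 CPM in RYGB_AL and at 28.3, 18.3 and 31.7 CPM in Sham_JEJU. Ccnb1 stood at 24.4, 45.8 and 30.8 CPM against 36.3, 25.0 and 43.4 CPM. Ccna2 stood at 29.0, 55.4 and 37.5 CPM against 45.5, 31.6 and 40.9 CPM. For these cyclins and their kinase, sample 2-3 was the highest of the alimentary limb and sham sample 14-28 the lowest of the jejunum, and the groups overlapped. Top2a was likewise highest in 2-3 (202 CPM, with 102 and 111 CPM in 1-1 and 15-29) and lowest in sham 14-28 (121 CPM, with 169 and 174 CPM in 8-15 and 15-30).

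Mki67 stood at 161, 222 and 145 CPM in RYGB_AL and at 246, 238 and 188 CPM in Sham_JEJU, where sample 14-28 was not the lowest. The log2 differences of the 5 mitotic genes ran from -0.35 for Mki67 (95% interval -0.80 to 0.10) to 0.21 for Cdk1 (95% interval -0.47 to 0.90), with edgeR adjusted p of 0.359 to 0.938. Their median was -0.05, against -0.01 over all IDs. For Cdk1 the interval runs from a ratio of 0.720 to one of 1.87, so equal levels were not shown. Without RYGB_AL 2-3, the log2 differences of Cdk1 and Ccna2 turned to -0.24 and -0.27.

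The common limb was compared with sham ileum to ask whether the bowel beyond the junction differed too. No member was called, and no ID at all: 0% of 16146 IDs passed with edgeR, while 93 were called by DESeq2 and 1268 fell under an unadjusted p of 0.05 in edgeR. Cdk1 stood at 25.4, 39.4 and 24.5 CPM in RYGB_CL samples 1-1, 2-3 and 15-29 and at 16.6, 22.1 and 22.5 CPM in Sham_IL samples 8-15, 14-28 and 15-30. It was the 1 member of 7 whose groups did not overlap, against 16.1% of all IDs. Its log2 difference was 0.54 (SE 0.32, 95% interval -0.15 to 1.24, edgeR adjusted p = 0.686).

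The partners of Cdk1 had smaller positive differences, 0.44 for Ccnb1 (95% interval -0.18 to 1.06) and 0.31 for Ccna2 (95% interval -0.19 to 0.81). Ccnb1 stood at 31.2, 49.7 and 29.1 CPM against 22.1, 29.6 and 29.6 CPM, and Ccna2 at 32.7, 46.0 and 37.6 CPM against 29.9, 30.8 and 33.4 CPM. As in the alimentary limb, the sample numbered 2-3 was the highest of its group for all 3 genes. The labels do not say whether limbs with the same number came from 1 rat.

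The remaining common limb differences were 0.26 for Top2a and 0.02 for Mki67. Both entry genes were close to equal between the group means, with log2 differences of 0.03 for Ccnd1 (95% interval -0.53 to 0.58) and 0.06 for Myc (95% interval -0.58 to 0.70). Ccnd1 stood at 72.5, 113 and 67.0 CPM in RYGB_CL and at 55.6, 84.4 and 108 CPM in Sham_IL, and Myc at 18.9, 17.7 and 30.5 CPM against 21.4, 24.2 and 18.9 CPM.

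The surgery differences of both limbs were set against each other in an interaction test. None of the 7 members was called, against 0.607% of IDs. The log2 interaction was -0.96 for Ccnd1 (SE 0.36, 95% interval -1.74 to -0.18, unadjusted p = 0.0204, edgeR adjusted p = 0.284) and 1.00 for Myc (SE 0.41, 95% interval 0.10 to 1.90, unadjusted p = 0.0327, edgeR adjusted p = 0.337). The Ccnd1 and Myc differences were therefore not shown to be particular to the alimentary limb. Each of the 5 mitotic genes had a negative interaction between -0.49 and -0.26, none past an edgeR adjusted p of 0.66.

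Within the bypassed bowel, the common limb was set against the alimentary limb. Myc was lower in RYGB_CL, 22.4 ± 7.07 against 50.4 ± 18.3 CPM (SD, n = 3 each), with a log2 difference of -1.17 (SE 0.30, 95% interval -1.82 to -0.53, edgeR adjusted p = 0.0317) and no overlap. It was the 1 member called of 7, against 9.32% of IDs. The call was lost in 4 of 6 fits with 1 sample left out, over which the log2 difference ran from -1.47 to -0.87, with the label number as a block (edgeR adjusted p = 0.0971), and with only these groups fitted (0.087).

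Ccnd1 was at 84.1 ± 25.1 CPM in RYGB_CL and 51.1 ± 4.64 CPM in RYGB_AL, without overlap, with a log2 difference of 0.72 (95% interval 0.16 to 1.27, edgeR adjusted p = 0.0909). Groups without overlap were found for 2 of 7 members and 32% of IDs. This comparison shares the RYGB_AL samples with the one against sham jejunum. The 5 mitotic genes had log2 differences of -0.07 to 0.20 between the limbs.

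Between the sham segments no member was called, against 9.22% of IDs, and 0 of 7 were without overlap, against 35.2% of IDs. All 7 members had lower mean levels in ileum than in jejunum, with log2 differences of -0.37 for Ccnb1 (95% interval -0.98 to 0.25) to -0.17 for Mki67 (95% interval -0.61 to 0.28). Among the first cohort's 4 groups, Myc in RYGB_AL was the one place in the order of group means where neighbouring groups did not overlap. For the other 6 genes every group overlapped the next in order.

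**Figure D4:**
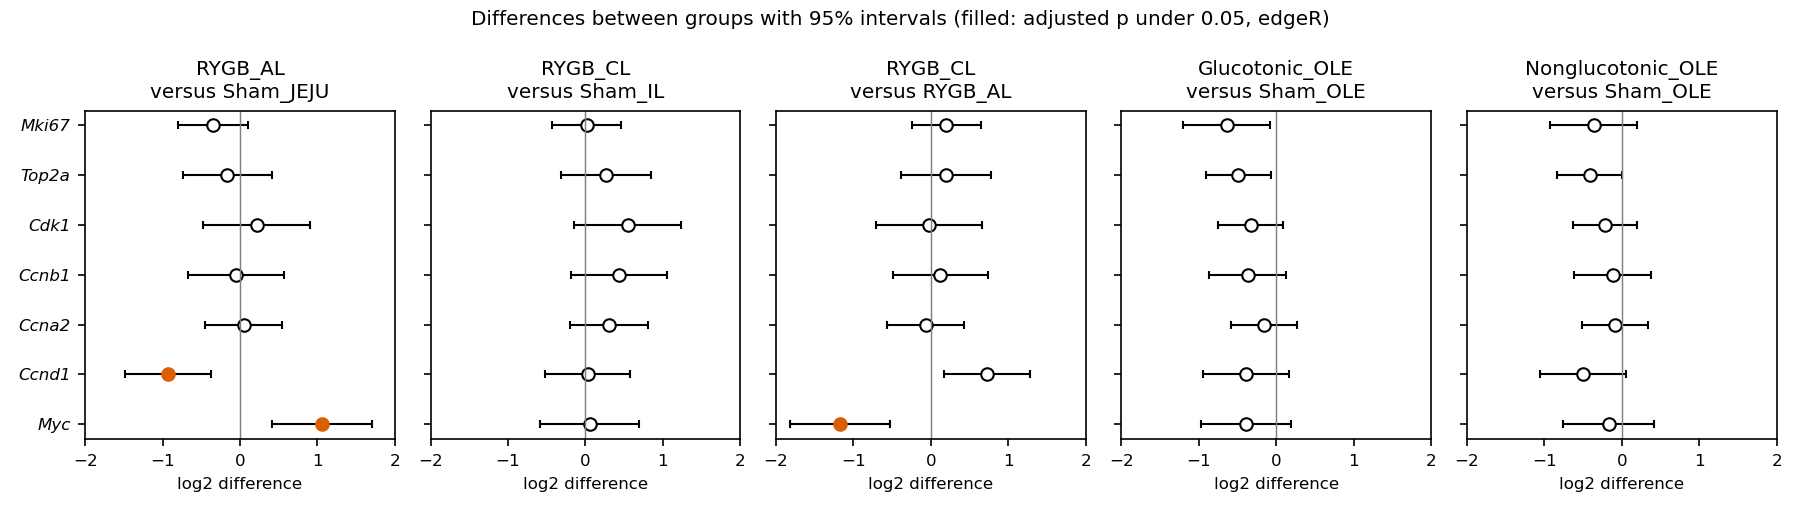
Log2 differences of the 7 genes in 5 comparisons. The x axis is the log2 difference of the first group named minus the second, points are edgeR estimates, whiskers are 95% intervals and filled points are called; Ccnd1 (-0.93) and Myc (1.06) in RYGB_AL and Myc (-1.17) between the limbs are the filled ones.

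In the OLETF rats, glucotonic sections after RYGB were compared with sham distal intestine. All 7 members had lower means in Glucotonic_OLE and none was called, against 0.0345% of IDs (5 of 14495; DESeq2 called 523, no member among them, and 2380 fell under an unadjusted p of 0.05 in edgeR). Mki67 stood at 105, 169, 118 and 180.4 CPM in numbers 13, 16, 18 and 19 and at 213, 241 and 215 CPM in sham numbers 4, 22 and 23. Top2a stood at 80.6, 95.1, 71.1 and 94.2 CPM against 108, 131 and 120.1 CPM. For both genes, every glucotonic sample lay below every sham sample.

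The log2 difference was -0.64 for Mki67 (SE 0.26, 95% interval -1.20 to -0.08, unadjusted p = 0.0294, edgeR adjusted p = 0.256) and -0.49 for Top2a (SE 0.19, 95% interval -0.91 to -0.07, unadjusted p = 0.0259, edgeR adjusted p = 0.246). Groups without overlap were found for these 2 of 7 members and for 12.7% of IDs. The other 5 members overlapped, with log2 differences from -0.39 for Ccnd1 and for Myc to -0.16 for Ccna2. The median over the 7 members was -0.39, against -0.02 over all IDs.

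The remaining members differed less between glucotonic and sham samples. Cdk1 stood at 11.3, 10.5, 9.50 and 13.6 CPM in numbers 13, 16, 18 and 19 and at 13.6, 16.5 and 12.4 CPM in sham, and Ccnb1 at 13.2, 10.6, 11.1 and 17.5 CPM against 19.1, 16.3 and 15.3 CPM. Ccna2 stood at 18.6, 21.1, 20.4 and 24.4 CPM against 25.4, 23.8 and 21.5 CPM. In these 3 genes number 19 was the glucotonic sample inside the sham range, and the other glucotonic samples lay below all sham samples. Ccnd1 stood at 37.0, 39.9, 41.7 and 66.8 CPM against 48.1, 74.5 and 60.1 CPM, with the same single sample inside the sham range. Myc stood at 10.5, 18.4, 17.3 and 19.5 CPM against 18.3, 28.9 and 17.2 CPM, where only number 13 lay below all sham samples.

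Counts of 5 genes relative to Mki67 counts were also compared within OLE samples, as a description without a test. The ratio of Ccna2 to Mki67 counts was 0.0986 to 0.119 in the 3 Sham_OLE samples, 0.125 to 0.177 in Glucotonic_OLE and 0.121 to 0.143 in Nonglucotonic_OLE. The sham samples lay below all 8 samples after RYGB, but this rests on summing the libraries of number 13: its non-glucotonic library in lane 4 was at 0.113, inside the sham range. For Ccnd1, Cdk1, Top2a and Ccnb1 the sham range overlapped with that of both RYGB groups. The ratio of Ccnd1 to Mki67 counts was 0.226 to 0.309 in sham, 0.236 to 0.370 in Glucotonic_OLE and 0.236 to 0.293 in Nonglucotonic_OLE. For Cdk1 it was 0.0578 to 0.0685, 0.0623 to 0.108 and 0.0629 to 0.0802, and for Top2a 0.508 to 0.560, 0.522 to 0.769 and 0.484 to 0.572. The ratio of Ccnb1 to Mki67 counts, 0.0677 to 0.0895 in sham, overlapped with 0.0629 to 0.126 in Glucotonic_OLE and 0.0853 to 0.102 in Nonglucotonic_OLE.

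Non-glucotonic sections of the same numbers were compared with the same sham samples. No member was called, and 0% of IDs passed with edgeR, while DESeq2 called 27 and 936 fell under an unadjusted p of 0.05 in edgeR. The means of all 7 members were again below the sham means, by log2 differences of -0.50 for Ccnd1 (95% interval -1.05 to 0.06) to -0.08 for Ccna2 (95% interval -0.51 to 0.34). None was without overlap, against 6.28% of IDs. Both comparisons share the 3 sham samples, so their directions are not independent.

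In the non-glucotonic sections, number 19 was the highest of its group for all 7 genes. Mki67 stood at 125, 144, 168 and 257 CPM in numbers 13, 16, 18 and 19, so that number 19 alone lay above the sham samples. Top2a stood at 71.4, 77.6, 87.0 and 124 CPM, and Ccnb1 at 12.7, 13.1, 14.4 and 22.2 CPM against 19.1, 16.3 and 15.3 CPM in sham. In the glucotonic sections number 19 was highest for 6 of the 7 genes, all but Top2a.

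Number 19 also stood apart over all IDs. The chi-square per degree of freedom between its library and the others of its group was 182 to 279 in Glucotonic_OLE, where the other libraries gave 16.3 to 40.3 among themselves. In Nonglucotonic_OLE these values were 111 to 141 and 21.8 to 61.9. Number 19 was not alone in this: in Sham_OLE, number 4 gave 96.2 with number 22 and 114 with number 23. Sham numbers 22 and 23 gave 22.4 with each other. The glucotonic library of number 19 was the only OLE library from lane 6, so its number and its lane cannot be told apart. Its non-glucotonic library shared lane 5 with that of number 18. As number 19 was also high for most members, leaving it out removes samples that lay against the lower values of the rest.

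With both sections of number 19 left out, 4 of 7 members were called lower in Glucotonic_OLE, against 13% of 14307 IDs. They were Mki67 (log2 difference -0.77, edgeR adjusted p = 0.0302), Ccnd1 (-0.63, 0.0339), Top2a (-0.54, 0.0394) and Ccnb1 (-0.53, 0.0288). In the non-glucotonic sections without number 19, none was called, against 1.1% of IDs. There 6 of 7 members no longer overlapped with sham, against 24.1% of 14495 IDs, and in the glucotonic sections the same count was 6 of 7, against 33.9%. Number 19 was the only glucotonic sample inside the sham range for Cdk1, Ccnb1, Ccna2 and Ccnd1, and the highest non-glucotonic sample throughout. Leaving it out therefore sets these counts in part, and they are no separate result about the members. The largest non-glucotonic difference was that of Ccnd1, -0.71 (edgeR adjusted p = 0.068).

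The sequencing lane moved with this comparison. The libraries of number 13 differ in lane but also in the index sequence of their labels, and the non-glucotonic ones in section label. Lane, library preparation and section therefore cannot be told apart in the ratios that follow. Number 13 had libraries in lanes 4 and 7 in both kinds of section, and the lane 7 library was the higher one for Ccnb1 by a ratio of 1.64 in Glucotonic_OLE (9.92 and 16.3 CPM, both labelled 38) and of 1.65 in Nonglucotonic_OLE (9.57 and 15.8 CPM, labelled 33 and 34). For Mki67 the ratio was 1.26 and 1.13, and for Top2a 1.33 and 1.21. In Glucotonic_OLE the lane 7 library was not the higher one for Ccna2 (ratio 0.997) or Myc (0.941). The lane 7 library of the glucotonic section thus reached the sham range for Ccnb1, 15.2 to 18.9 CPM when libraries were scaled apart, but not for Mki67 (118 CPM against 212 to 244) or Top2a (92.1 CPM against 108 to 132).

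With number 19 left out and lane 7 added as a covariate, a combination chosen after seeing the data, 0 members were called and 39 IDs were. The glucotonic log2 difference was then -0.94 for Mki67 (edgeR adjusted p = 0.102), -0.48 for Top2a (0.218), -0.59 for Ccnd1 (0.158) and -0.18 for Ccnb1 (0.634). That fit compares sham with RYGB within lane 7 through number 13 alone. It kept the libraries of number 13 apart, so repeat libraries of a number counted as separate samples in its adjusted p.

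**Figure D5:**
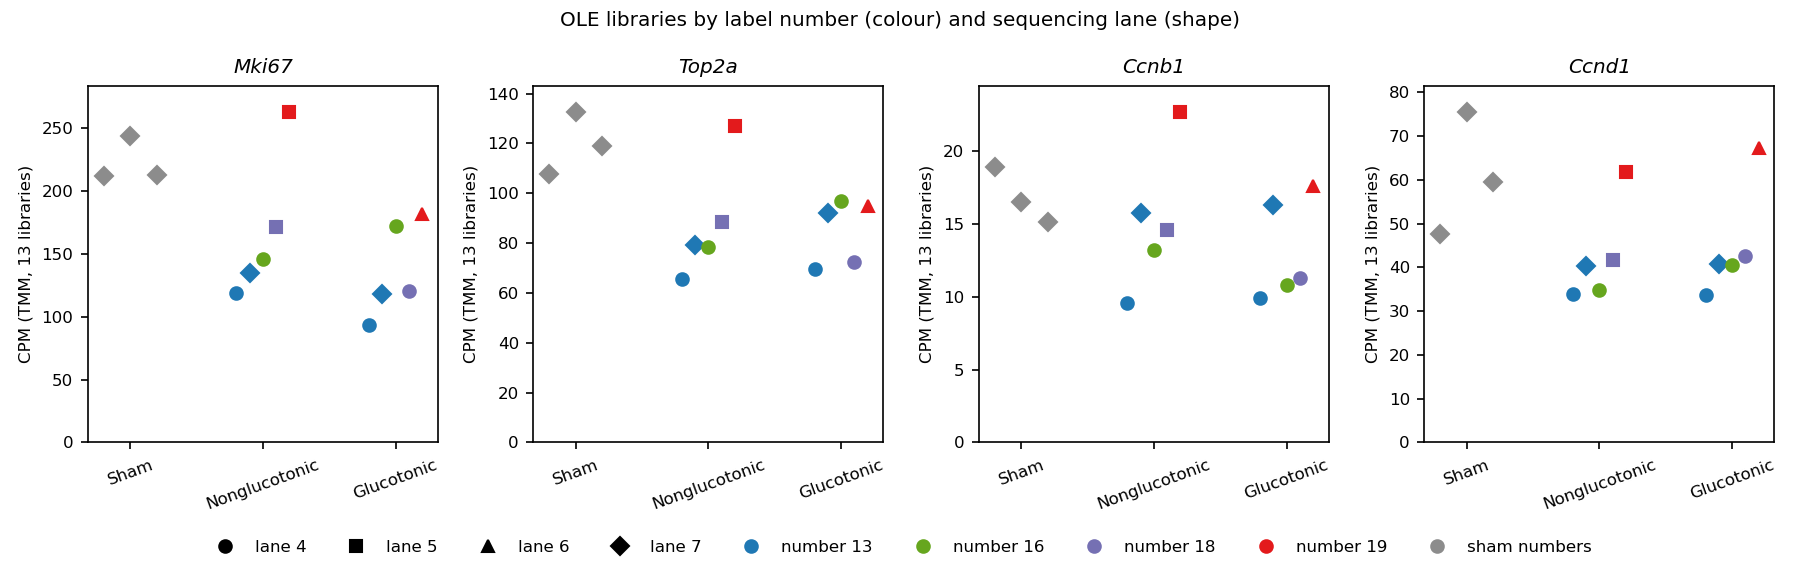
Mki67, Top2a, Ccnb1 and Ccnd1 in the 13 OLE libraries. The y axes are CPM (TMM-scaled, from 0), each point is a library, shapes are sequencing lanes and colours are label numbers; number 19 is the highest non-glucotonic library in each panel, and for Ccnb1 the lane 7 libraries of number 13 (15.8 and 16.3) lie beside the sham libraries while its lane 4 libraries (9.57 and 9.92) do not.

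The 2 kinds of section were compared with each other as the submitters' own contrast of response within operated rats. No member was called, and 0% of IDs passed with edgeR, while DESeq2 called 3 and 388 fell under an unadjusted p of 0.05 in edgeR. The log2 differences of glucotonic minus non-glucotonic sections ran from -0.28 for Mki67 (95% interval -0.80 to 0.25) to 0.10 for Ccnd1 (95% interval -0.42 to 0.62). Groups without overlap were found for 0 of 7 members and 2.79% of IDs. With the label number as a block, 25 IDs and 0 members were called. Without number 19, edgeR called 0% of IDs, and 6 with the block.

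Across all 23 samples the 5 mitotic genes kept close to each other. Likeness was measured as the root mean square difference in log2 CPM, each gene centred within its cohort's samples, from the mean of the 5 genes, whose own SD was 0.28. It was 0.107 for Top2a, 0.122 for Ccna2, 0.129 for Ccnb1, 0.137 for Cdk1 and 0.213 for Mki67, each of which is part of that mean. The entry genes lay further off, Ccnd1 at 0.350 and Myc at 0.486, beside a median of 0.456 over 14313 IDs. The IDs outside the 8 nearest to the mitotic mean were ENSRNOG00000038572 at 0.0816 and ENSRNOG00000005659 at 0.0969. Neither was called in any comparison: in RYGB_AL against Sham_JEJU their log2 differences were 0.07 and -0.15, and in Glucotonic_OLE against Sham_OLE -0.37 and -0.25. Both were picked for likeness to the uncalled mitotic genes over these same samples, so this is no separate observation.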

How the data were processed

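Total RNA was isolated on columns, and rRNA-depleted stranded libraries were sequenced, per the labels' protocols. FastQC, STAR and rat build rn6 are named in the submitters' processing notes. How reads were then counted (tool, annotation, strand, multi-mapping reads) is not given in the sources used here. Per the values, the authors deposited raw whole-number counts for each Ensembl gene ID. A read shared by near copies of a gene may have been counted on either.

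The members and lists were chosen with earlier results of these data known. Member symbols came from the rule that chose them. The files give no names for the other IDs, and 0 rows of the reference gene table carry an ID of this kind. The wider gene lists and the markers of other cell types were therefore not used here, and the labelled segments were not checked against markers.

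Sample titles gave the groups. Both libraries of number 13 within a group were summed, giving 4, 4 and 3 OLE samples. The cohorts were fitted separately in R 4.3.3 with edgeR 4.0.16, using filterByExpr (a minimum of 10 counts per library and 15 over all), TMM factors, robust quasi-likelihood estimation and the Benjamini-Hochberg method (adjusted p under 0.05). Biological coefficients of variation were 0.314 (first cohort) and 0.279 (OLE). An SE is the log2 difference over the square root of F, and log2 CPM used a prior count of 2. Alternatives were DESeq2 1.42.0, its size factors, fits of only the compared groups, no filter on low counts, samples left out, libraries of number 13 kept apart, lane 7 as a covariate, number 19 left out and the label number as a block. Fits with lane 7 as a covariate also kept the libraries of number 13 apart. The main fit was first run on simulated data, and the outcome of that run is not reported here. Counting error is the Poisson error of a count.

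All members were named. The nearest IDs outside them are the 2 with the smallest root mean square difference. OLE sections with the same number deviated together from their group means (r = 0.427 to 0.853, all above 0.1), and the numbers were taken to pair the sections. Sections with different numbers reached 0.534, so the ranges overlapped and the pairing is not settled. The main fit took all sections as separate samples, and the OLE intervals and p-values from it leave the pairing out. Only the fits with the label number as a block used it. In the first cohort the same check gave -0.065 to 0.316 for the RYGB limbs and 0.013 to 0.102 for the sham segments, which were not taken as paired. No libraries of a group were alike within sampling noise, the lowest chi-square per degree of freedom being 16.3. Promoter windows are RefSeq's, on GRCr8, and were not joined to rn6 coordinates.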

Additional observations from a re-analysis of the deposited data

Results flagged for a closer look

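Ccnd1 stood at 66.8 CPM in Glucotonic_OLE number 19, where the next highest sample of that group was at 41.7 CPM. That gap was 0.841 of the whole range of the 4 samples, above Dixon's 95% critical value for 4 samples. It was the 1 value set apart in this way among 14 groups of 4 values examined, the 7 genes in Glucotonic_OLE and in Nonglucotonic_OLE. Chance gives about 1 in 20 for a single such group. The groups share samples and are not independent, so that rate does not carry over to the 14 together. The Nonglucotonic_OLE section of number 19 was also the highest of its group for Ccnd1, at 60.6 CPM. In Sham_OLE the gene ranged from 48.1 to 74.5 CPM.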

How the results depend on the processing

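Against Sham_JEJU, Ccnd1 and Myc kept their direction in RYGB_AL in all fits run. With only the compared groups 1 member was called instead of 2, and 0 to 1 with a sample left out, while all IDs called went from 1237 to 2029 with DESeq2 and to 484 to 1212 with a sample left out. For RYGB_CL against RYGB_AL, 0 members and 432 IDs were called with only these groups, 0 and 190 with the replicate block, and 0 to 1 and 396 to 2237 with a sample left out; DESeq2 called 2771 IDs.

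DESeq2 called 93 IDs for RYGB_CL against Sham_IL, 568 for the interaction, 2639 for the sham segments, 523 and 27 for glucotonic and non-glucotonic sections against sham, and 3 between the sections. Without a low-count filter, 1 ID was called for RYGB_CL against Sham_IL and 28 for Glucotonic_OLE against Sham_OLE. The latter gave 0 IDs with only the compared groups, 31 with the libraries of number 13 apart, 0 with lane 7 as a covariate, 1862 (4 members) without number 19 and 39 with lane 7 as well. Nonglucotonic_OLE against Sham_OLE gave 157 without number 19 and 1 with lane 7 as well. The replicate block gave 690 IDs between the sham segments and 25 between the OLE sections, and 6 there without number 19. It changed no call of a member other than Myc between the limbs.

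With a sample left out, IDs called ran from 0 to 56 for RYGB_CL against Sham_IL (56 without RYGB_CL 2-3), 8 to 127 for the interaction, 235 to 1580 for the sham segments, 0 to 103 for Glucotonic_OLE against Sham_OLE (103 without sham 4), 0 to 3 for Nonglucotonic_OLE against Sham_OLE and 0 to 1 between the OLE sections.

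Uncalled members near 0 changed sign in 36 values, from 25 fits. With a sample left out, log2 differences for RYGB_AL against Sham_JEJU ran from -0.57 to 0.017 for Top2a, -0.24 to 0.46 for Cdk1, -0.37 to 0.13 for Ccnb1 and -0.27 to 0.24 for Ccna2. For RYGB_CL against Sham_IL they ran from -0.13 to 0.11 for Mki67, -0.24 to 0.27 for Ccnd1 and -0.23 to 0.20 for Myc, and for Myc between the sham segments from -0.36 to 0.044. Between the limbs they ran from -0.28 to 0.41 for Cdk1 (0.037 with only these groups, 0.082 with the block), -0.16 to 0.42 for Ccnb1 and -0.26 to 0.23 for Ccna2 (0.019 with the block). For Nonglucotonic_OLE against Sham_OLE they ran from -0.29 to 0.045 for Ccna2 and -0.35 to 0.11 for Myc, and Ccnb1 was 0.0375 with lane 7 as a covariate. Between the OLE sections they ran from -0.12 to 0.31 for Ccnd1, -0.18 to 0.12 for Top2a, -0.22 to 0.043 for Cdk1 and -0.20 to 0.13 for Ccna2. Without number 19 Top2a was 0.063 and Ccna2 0.0497, and with the block as well 0.052 and 0.0525. The cause was not tested.

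With both cohorts scaled together, 39 of 49 group means moved by more than their SD, as did all 21 OLE means, by a factor of 2.11 to 2.13, when the 2 most abundant IDs were left out of the totals. In the OLE libraries 8.48 to 12.8 M counts remained for other IDs, and counting error on a member was at most 7.14%.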
